A study of Homo sapiens with 10 samples.

Results

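DGCR8 and 9 further genes of the microRNA machinery (DROSHA, XPO5, DICER1, TARBP2, AGO1, AGO2, AGO3, AGO4 and TNRC6A) were examined in EndoC-βH1 cells, a human insulin-producing beta cell line, after knockdown of the splicing factor SRp55. They were picked by name, with earlier results of these libraries known: DGCR8 was included because its transcripts exchanged after the knockdown, and the others because they act in the same pathway. They are 10 of the 26346 genes listed and hold 117 of the 155130 listed transcripts, 10 of them from DGCR8. All 10 passed the filter on low values, a mean of at least 0.5 RPKM (reads scaled to transcript length and library size). Polyadenylated RNA was sequenced from 5 preparations given a control siRNA and 5 given 1 siRNA against SRp55 (siSR#2, the single sequence used against it here), all in EndoC-βH1 cells. The 2 groups share replicate numbers 1 to 5, and the series describes the preparations as independent.

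MicroRNAs are cut from long primary transcripts. In the nucleus DGCR8, a double-stranded RNA-binding protein, and the RNase DROSHA form the Microprocessor, which releases a hairpin precursor that XPO5 (exportin-5) carries to the cytoplasm. There the RNase DICER1 with its partner TARBP2 (TRBP) trims the hairpin, and one strand is loaded into an Argonaute protein (AGO1 to AGO4), which recruits TNRC6A (GW182) to silence target mRNAs. The Microprocessor also cuts hairpins in the mRNA of DGCR8 itself, and Dicer is required for a normal beta cell phenotype in mice. Mature microRNAs were not measured here, because the RNA was column-purified with a kit that favours longer molecules and then selected for poly(A).

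The libraries held 61.9 to 190 M reads assigned to transcripts (M for mega), averaging 115 ± 36.5 M with the control siRNA and 128 ± 36.1 M with the SRp55 siRNA (SD, n = 5 each). SRSF6, the gene of SRp55, fell from 98.2 ± 3.24 to 24.9 ± 3.78 RPKM (limma log2 difference -1.97, adjusted p = 2.0e-05), to 25.3% of the control mean. All 10 beta cell markers examined were present, and their levels did not run one way. INS (insulin) stood at 6597 ± 3464 and 9520 ± 1414 RPKM and SLC30A8 at 77.3 ± 11.4 and 172 ± 24.6, while PDX1 stood at 99.8 ± 8.63 and 79.4 ± 6.49, IAPP at 34.9 ± 13.7 and 17.0 ± 9.52, NKX6-1 at 23.5 ± 6.86 and 15.4 ± 4.76 and NKX2-2 at 32.5 ± 2.26 and 28.8 ± 1.53; SLC30A8 and PDX1 were without overlap. The list, dominated by INS and CHGA, had summed levels of 12836 to 25039 RPKM with the control siRNA and 18314 to 28428 with the SRp55 siRNA. Of the markers of other islet cells, 2 of 5 reached a mean of 0.5 RPKM, with SST at 110 ± 76.5 and 92.2 ± 58.4 RPKM and PPY listed at 0, and the list summed to 54.3 to 242 and 42.6 to 190 RPKM. Acinar and duct markers (2 of 5 present, PRSS1 and CELA3A listed at 0) summed to 36.4 to 53.7 and 41.6 to 97.6 RPKM. Mesenchymal, endothelial and immune markers (2 of the 4 listed in the files present, VIM listed at 0) summed to 34.3 to 50.9 and 31.2 to 52.2 RPKM. The part of these markers in the results was not tested. In bulk RNA, a change in the number of cells of a type and a change in RNA per cell cannot be told apart.

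DGCR8 (ENSG00000128191.9, chr22:20067755-20099400, + strand, GRCh37) is shown first by the stretches on which its transcripts differ. The longest coding transcript, ENST00000351989.3, has 14 exons and 773 codons. Exon 8 is absent from ENST00000383024.2 and from ENST00000407755.1. It is 99 bases long, a whole number of codons, and its loss removes 33 codons (740 remain in ENST00000407755.1) without shifting the frame, touching codons 536 to 569, within the first double-stranded RNA-binding domain. Intron 4, 164 bases, is kept in ENST00000498171.1. That transcript starts inside intron 2, so it lacks the exons upstream of that intron and carries the intron's last part. Both are printed from the GRCh38 reference, + strand, with 20 flanking bases on each side, since they separate the transcripts that were exchanged. Capitals mark the exon in the former and the intron in the latter:
DGCR8 exon 8, chr22:20092789-20092927: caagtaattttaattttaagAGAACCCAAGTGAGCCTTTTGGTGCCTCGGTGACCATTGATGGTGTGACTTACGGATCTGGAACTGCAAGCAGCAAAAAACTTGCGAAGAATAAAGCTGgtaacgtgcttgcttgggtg
DGCR8 intron 4, chr22:20089792-20089995: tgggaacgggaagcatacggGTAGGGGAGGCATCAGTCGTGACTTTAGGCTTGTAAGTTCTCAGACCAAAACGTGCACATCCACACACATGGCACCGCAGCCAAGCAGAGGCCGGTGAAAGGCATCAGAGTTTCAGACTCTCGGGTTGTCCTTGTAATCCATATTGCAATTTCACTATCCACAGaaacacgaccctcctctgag
The exon had a GC content of 47.5% and the intron of 50%. ENST00000383024.2 has no entry in the annotation used for names, so its structure was inferred: it is 95 bases shorter than ENST00000351989.3 in the files, ends 4 bases further downstream, and only 1 set of whole internal exons, exon 8 alone, gives that difference. The exons so assigned gave the listed length for all 10 DGCR8 transcripts.

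Exon 2 of DGCR8 also carries the hairpins cut by the Microprocessor. Their mature products are printed from RefSeq (GRCh38.p14), with the seed, bases 2 to 8, in capitals, because they lie in the mRNA whose isoforms are compared:
hsa-miR-3618, chr22:20085797-20085818: uGUCUACAuuaaugaaaagagc
hsa-miR-1306-5p, chr22:20086072-20086093: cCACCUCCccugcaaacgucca
hsa-miR-1306-3p, chr22:20086112-20086129: aCGUUGGCucugguggug
The 3 seeds differ from each other. The miR-3618 hairpin lies before the coding part and miR-1306 within it. The annotated start of ENST00000495826.1, a transcript that keeps intron 2 (chr22:20086684-20087161, GRCh38, 478 bases), stands at position 20085820, 2 bases past the end of mature miR-3618 and inside its hairpin (chr22:20085746-20085833). ENST00000407755.1 starts 2 bases after ENST00000495826.1 in the files.

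The DGCR8 gene sum overlapped between the groups, while several of its transcripts did not. DGCR8 was listed at 19.6, 23.8, 15.5, 25.0 and 19.3 RPKM in control replicates 1 to 5 and at 20.2, 22.8, 21.6, 18.4 and 19.8 RPKM in SRp55 siRNA replicates 1 to 5. The SRp55 siRNA values all lay inside the control range, with means of 20.6 ± 3.81 and 20.6 ± 1.70 RPKM (SD, n = 5). As a share of assigned reads the gene stood at 72.5 ± 7.31 and 76.5 ± 11.1 RPM (reads per M assigned reads), also overlapping. Because DGCR8 was chosen from this contrast, its sums and transcript shares are descriptions and carry no test. No share of all listed transcripts without overlap is given here to set beside them. DGCR8 overlaps TRMT2A, on the opposite strand, by 12 bases.

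ENST00000351989.3, the transcript with every coding exon, was present in all control libraries and listed at 0 in every SRp55 siRNA library. Its usage, the percent of the summed DGCR8 RPKM held by 1 transcript, was 25.9, 30.1, 41.3, 28.01 and 39.1% in control replicates 1 to 5 (32.9% ± 6.90). Its levels there were 5.06, 7.15, 6.42, 7.001 and 7.53 RPKM, resting on 2564 to 6188 estimated reads. The groups were fully apart. By counting error alone, 0 of the 6653 to 14183 DGCR8 reads in the SRp55 siRNA libraries allows a share of up to 0.0212 to 0.0451% (3 counts of the total), but this limit does not cover the way reads shared between transcripts were divided among them. An exact 0 can also be a failed estimate, so no fold change is given. ENST00000498171.1, described below, also holds exon 8. Summed with ENST00000351989.3 it stood at 8.72 ± 1.14 RPKM in control and 7.78 ± 1.22 in SRp55 siRNA libraries, ranges that overlap. Whether reads were divided differently between these transcripts was not tested.

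The form without exon 8 was nearly the converse. ENST00000383024.2 held 5.87, 0, 2.34, 0 and 0% of DGCR8 in control replicates 1 to 5 and 38.6, 18.9, 18.6, 48.9 and 39.0% in SRp55 siRNA replicates 1 to 5. Every SRp55 siRNA library lay above every control library, with means of 1.64% ± 2.57 and 32.8% ± 13.5, a shift of 31.2 percentage points. The low SRp55 siRNA libraries were replicates 2 and 3, where the short transcript ENST00000457069.1 (770 bases) held 20.7 and 21.2%, while it was listed at 0 in replicates 1, 4 and 5. ENST00000457069.1 has 2 exons at the upstream end of the gene and does not reach exon 8. Sums that include it are therefore no measure of exon 8 loss. Summed, ENST00000383024.2 and ENST00000457069.1 stood at 1.55, 0.0814, 1.09, 0 and 0 RPKM in control and at 7.80, 9.04, 8.61, 9.02 and 7.72 RPKM in SRp55 siRNA replicates 1 to 5. The sum over ENST00000351989.3, ENST00000407755.1, ENST00000457069.1 and ENST00000383024.2 averaged 7.75 ± 0.391 RPKM with the control siRNA and 8.44 ± 0.644 RPKM with the SRp55 siRNA, ranges that overlap. Without ENST00000457069.1 it was 7.51 ± 0.511 and 6.57 ± 2.26 RPKM.

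A pair of intron-retaining transcripts differed in opposite directions. ENST00000498171.1, which keeps intron 4, held 15.5, 9.02, 3.94, 11.2 and 9.71% in control and 37.4, 30.3, 42.4, 34.5 and 44.9% in SRp55 siRNA replicates 1 to 5, means of 9.87% ± 4.15 and 37.9% ± 5.90. ENST00000495826.1, which keeps intron 2, held 11.3, 7.26, 8.68, 8.09 and 15.5% in control and 2.17, 1.32, 1.75, 1.14 and 3.02% in SRp55 siRNA replicates 1 to 5. Neither transcript's groups overlapped. All retained-intron transcripts together held 61.3% ± 7.64 of the DGCR8 RPKM in control and 58.8% ± 4.37 in SRp55 siRNA libraries. RPKM weighs short transcripts more than reads do, so these nearly equal sums do not carry over to reads. Of the DGCR8 reads, ENST00000498171.1 held 12.6% ± 5.26 in control and 43.3% ± 7.68 in SRp55 siRNA libraries. ENST00000495826.1 held 16.1% ± 3.87 and 2.72% ± 0.868 of them.

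**Figure D1:**
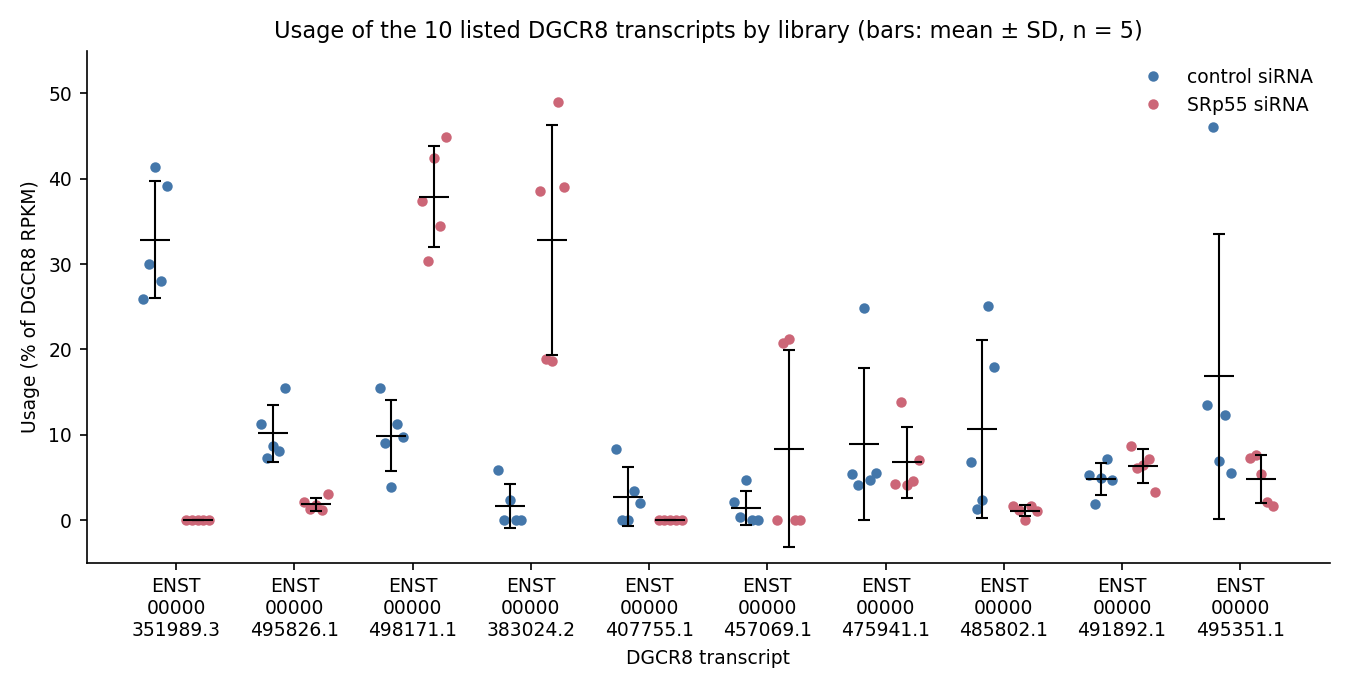
Usage of each of the 10 DGCR8 transcripts as a percent of the summed DGCR8 RPKM (vertical axis), with 1 point per library and bars for the mean ± SD of 5 control siRNA and 5 SRp55 siRNA libraries. ENST00000351989.3 lies at 0 in all SRp55 siRNA libraries, and ENST00000383024.2 and ENST00000498171.1 lie above every control library.

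The other DGCR8 transcripts overlapped between the groups. ENST00000407755.1, which also lacks exon 8, held 8.34, 0, 0, 3.37 and 1.97% in control replicates and was listed at 0 in every SRp55 siRNA library. ENST00000457069.1, described above, held 1.42% ± 2.02 and 8.39% ± 11.5. Of the 4 transcripts at the downstream end, ENST00000495351.1 (508 bases) held 16.8% ± 16.7 and 4.83% ± 2.82, and ENST00000485802.1 (555 bases) held 10.7% ± 10.4 and 1.11% ± 0.673. ENST00000475941.1 (2669 bases) held 8.93% ± 8.90 and 6.77% ± 4.13, and ENST00000491892.1 (630 bases) held 4.81% ± 1.91 and 6.33% ± 1.95. These 4 downstream transcripts summed to 8.73 ± 3.45 and 3.98 ± 1.61 RPKM. The longest of them, ENST00000475941.1, held 7.75% ± 6.90 and 5.96% ± 4.62 of the DGCR8 reads. RPKM weighs a short transcript more than its reads do, and 85.5% ± 5.77 and 89.4% ± 7.70 of the DGCR8 reads belonged to the 5 transcripts that span exon 8.

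Read as splicing events over those 5 spanning transcripts, the differences were as follows. Transcripts with exon 8 held 78.7, 100, 95.8, 93.4 and 97.0% of the spanning RPKM in control replicates and 50.6, 62.6, 70.4, 42.1 and 55.2% in SRp55 siRNA replicates (93.0% ± 8.32 and 56.2% ± 10.9). Intron 4 was retained in 23.1, 19.5, 7.0, 22.1 and 14.7% in control and in 47.9, 60.0, 67.6, 40.8 and 51.7% in SRp55 siRNA replicates (17.3% ± 6.61 and 53.6% ± 10.5). No control library reached the SRp55 siRNA range in either event. Exon 8 remained in the SRp55 siRNA libraries largely through ENST00000498171.1: with the retained-intron transcripts set aside, the share with exon 8 was 88.7% ± 14.03 in control and was listed at 0 in all 5 SRp55 siRNA libraries. Intron 2 retention, over the spanning transcripts that cover it, was 21.2% ± 3.98 in control and 5.99% ± 2.39 in SRp55 siRNA libraries, again without overlap. This share leaves out ENST00000498171.1, which starts inside intron 2 and carries its last part. It therefore does not measure all RNA with intron 2 sequence.

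**Figure D2:**
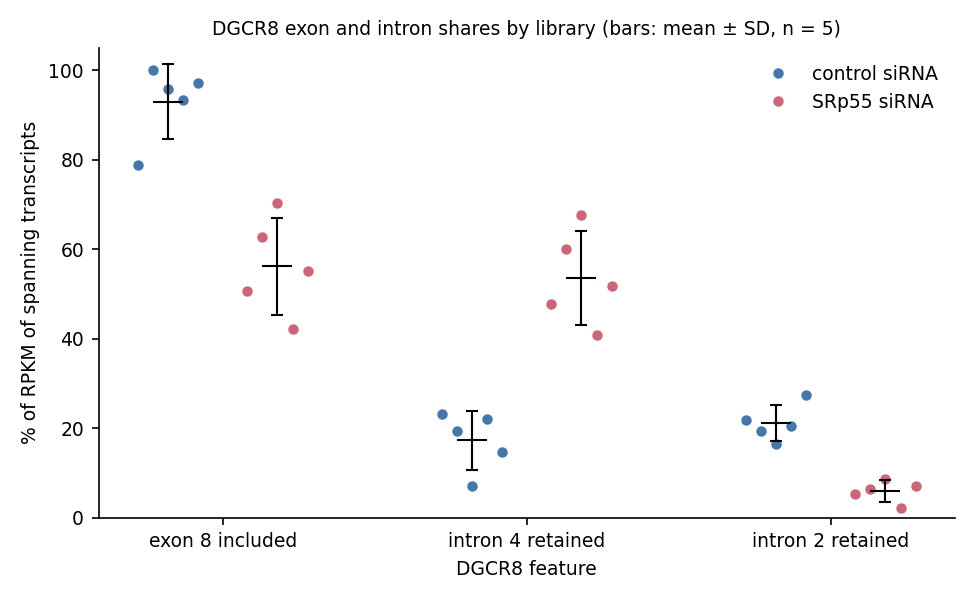
Share of the spanning DGCR8 transcripts' RPKM (percent, vertical axis) with exon 8 included, intron 4 retained or intron 2 retained, with 1 point per library and bars for the mean ± SD (n = 5 per group). Control siRNA and SRp55 siRNA libraries do not overlap in any of the 3 events.

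The sequence words that SRp55 selects in vitro were searched for in both stretches. The 8 words of 6 letters begin with TCCG or with TGCG and end in GA, GC, TA or TC, and were searched without mismatch on both strands. Exon 8 held 0 of them on the RNA strand and 1 on the opposite strand, and intron 4 held 0 on either. Among 1780 internal exons of 99 bases 6.69% held a word on the RNA strand, and among 165 introns of 164 bases 9.70% did. The result says only that these letters are not in these windows.

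In summed RPKM the levels of the 10 genes fell into an upper and a lower set. In control libraries the order of mean gene sums was TARBP2 (26.2 ± 7.08 RPKM), DICER1 (21.7 ± 1.501), DGCR8 (20.6 ± 3.81), DROSHA (20.04 ± 1.32), XPO5 (18.1 ± 3.33), TNRC6A (15.3 ± 2.74), AGO1 (7.95 ± 0.999), AGO2 (5.97 ± 1.25), AGO3 (4.66 ± 2.65) and AGO4 (3.42 ± 0.414). Neighbours in this order overlapped across libraries, except TNRC6A and AGO1. In SRp55 siRNA libraries the order was the same at both ends, with TARBP2 at 37.8 ± 8.15 and AGO4 at 3.89 ± 0.565 RPKM. Read shares, which grow with transcript length, gave another order without these sets. In control libraries AGO1 stood at 101 ± 7.60 RPM, above XPO5 (91.2 ± 6.67), DGCR8 (72.5 ± 7.31) and TARBP2 (32.7 ± 6.41), while AGO2 was lowest (15.7 ± 0.935).

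**Figure D3:**
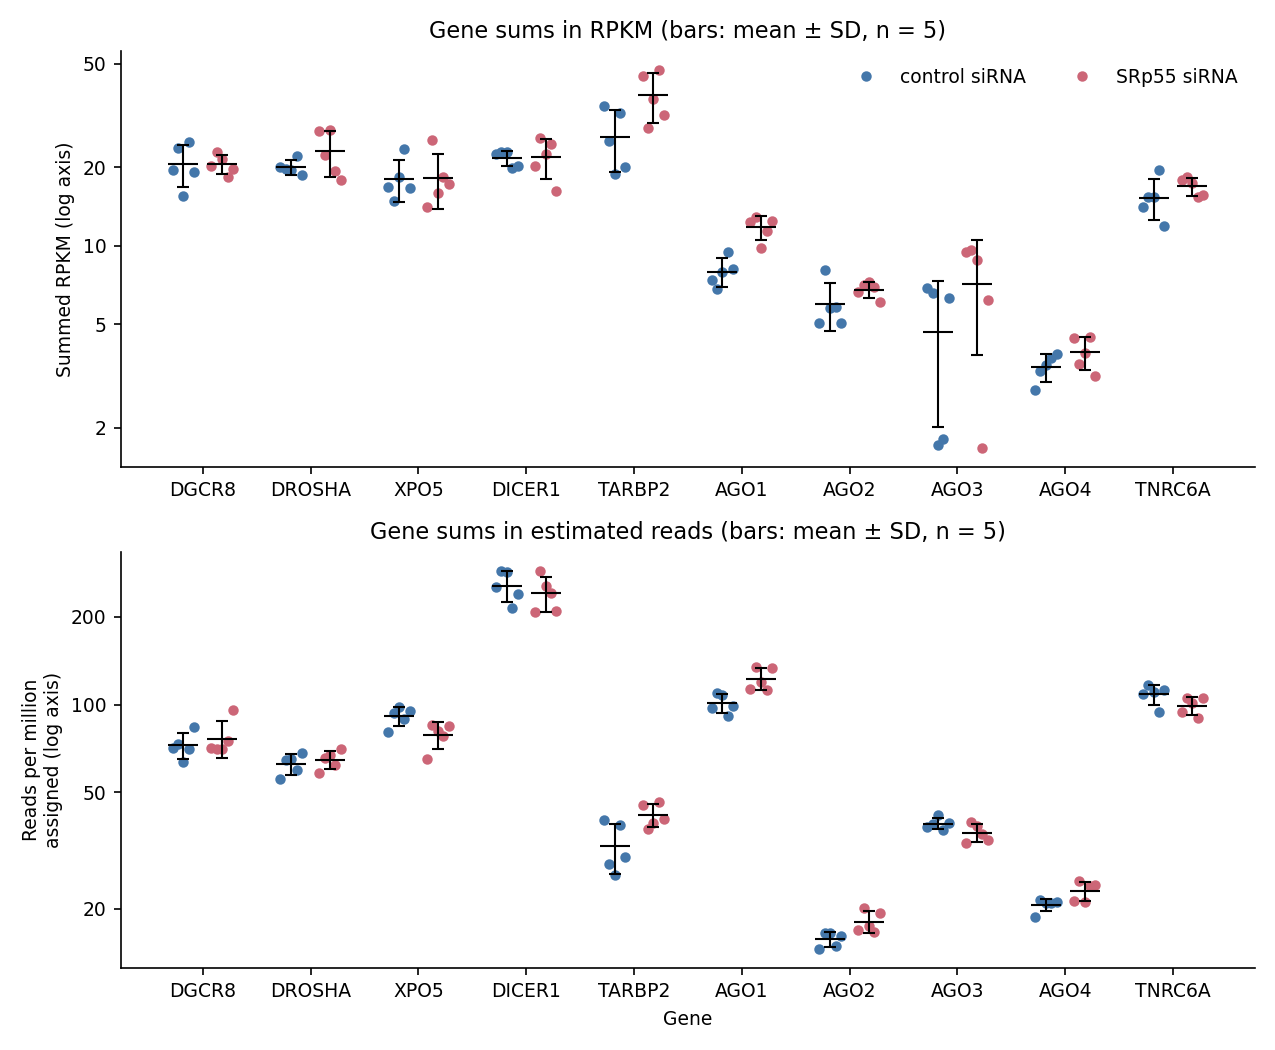
Gene sums of the 10 genes in RPKM (upper panel) and in RPM (lower panel), both on log axes, with 1 point per library and bars for the mean ± SD (n = 5 per group). AGO1 lies higher in all SRp55 siRNA libraries in both panels, and AGO3 spreads widely in RPKM but not in reads.

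Of the 9 genes other than DGCR8, 1 (AGO1) rose, none fell and 8 did not pass limma's test at an adjusted p under 0.05. Among all genes tested, 684 of 13630 tested genes passed (5.02%), 513 of them higher after SRp55 siRNA (3.76%) and 171 lower. With the replicate number as a block 1784 passed, and 2 of the 9. Scaling by median of ratios gave 412 higher and 507 lower genes, and none of the 9 passed. Groups without overlap in RPKM were found for 1 of the 9 genes, AGO1, and for 7.92% of all tested genes. The number of genes called was 259 when control replicate 2 was left out and 1083 when control replicate 4 was; removing control replicates 1, 3 or 5 or SRp55 siRNA replicates 2, 3 or 4 gave 330, 306, 268, 319, 297 and 315. Fold changes below are log2 values on the scale log2(RPKM + 0.5), relative to the median tested gene, which itself stood 0.11 higher after SRp55 siRNA. The SE and p-value beside each belong to limma's test of the difference before that 0.11 was taken off, so they do not test the relative value printed.

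DROSHA, the RNase of the Microprocessor (chr5:31400604-31532303, − strand, GRCh37, 21 transcripts), stood at 20.04 ± 1.32 RPKM in control and 23.0 ± 4.58 in SRp55 siRNA libraries (log2 fold change 0.07, SE 0.136, limma adjusted p = 0.49). Its read share was 62.6 ± 5.00 and 64.7 ± 4.71 RPM, higher within all 5 numbered pairs but overlapping between groups. Without SRp55 siRNA replicate 3 its fold change was -0.01. Its most used transcript, ENST00000513349.1, held 31.5% ± 8.48 and 30.8% ± 6.77. The retained-intron transcript ENST00000509608.1 held 14.3% and 16.0% on average.

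XPO5, the exporter (chr6:43490072-43543812, − strand), had gene sums of 18.1 ± 3.33 and 18.2 ± 4.36 RPKM (a log2 difference of -0.11 relative to the median gene; the difference tested was 0.00, SE 0.168, limma adjusted p = 1.00). In reads it was lower within all 5 pairs, at 91.2 ± 6.67 and 78.8 ± 8.10 RPM, with an adjusted p of 0.11 by limma on read sums. It overlaps POLR1C, on the opposite strand, by 7252 bases, and whether counting used strand is not given in the sources used here, so its level is uncertain. ENST00000265351.7 held 74.0% ± 10.8 and 66.3% ± 13.98 of XPO5.

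DICER1 (chr14:95552565-95624347, − strand), the RNase that trims the hairpin, was listed at 21.7 ± 1.501 and 21.9 ± 3.81 RPKM (a log2 difference of -0.11, SE 0.130, limma adjusted p = 0.99). ENST00000343455.3 held 84.6% ± 5.24 and 82.2% ± 6.82 of it. In read share, which counts a long mRNA more heavily, DICER1 was the highest of the 10 genes, at 255 ± 31.2 and 240 ± 33.2 RPM.

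TARBP2, the DICER1 partner (chr12:53894705-53900215, + strand, 20 transcripts), was listed at 34.5, 25.3, 18.8, 32.5 and 20.1 RPKM in control replicates 1 to 5 and at 44.7, 28.4, 36.6, 47.4 and 31.9 RPKM in SRp55 siRNA replicates 1 to 5. It was higher in the SRp55 siRNA library of all 5 numbered pairs, but the groups overlapped. Its mean was 144% of control (log2 fold change 0.42, SE 0.203), and it did not pass limma's test (adjusted p = 0.16). With the replicate number as a block, the limma adjusted p was 0.041. Its transcripts varied widely between libraries: ENST00000551741.1, annotated to nonsense-mediated decay, held 46.9% ± 26.3 and 53.8% ± 16.5, and ENST00000552817.1 held 13.4% ± 22.7 and 20.1% ± 19.7.

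AGO1 (chr1:36335409-36395211, + strand), an Argonaute without the slicing activity of AGO2, was the gene that rose. It was listed at 7.37, 6.83, 7.90, 9.48 and 8.16 RPKM in control replicates 1 to 5 and at 12.3, 12.9, 9.84, 11.4 and 12.4 RPKM in SRp55 siRNA replicates 1 to 5. The lowest SRp55 siRNA library lay just above the highest control library. The mean rose from 7.95 ± 0.999 to 11.8 ± 1.20 RPKM, 148% of control (log2 fold change 0.43 relative to the median gene; the difference tested was 0.54, SE 0.114, limma adjusted p = 0.0256). In read share the groups were also apart, at 101 ± 7.60 and 123 ± 10.6 RPM (limma adjusted p = 0.030, log2 fold change 0.29 on reads). Scaling by median of ratios, which takes most of the shift out before the test, ended the call (limma adjusted p = 0.0564), as did each fit without control replicate 1, 2, 3 or 5 or SRp55 siRNA replicate 2 or 4, where the limma adjusted p was 0.0595, 0.0714, 0.0599, 0.0572, 0.0656 and 0.0549.

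AGO1 has 2 listed transcripts. The shorter, ENST00000373206.1 (3996 bases), was at 1.11, 0.218, 1.67, 4.35 and 3.49 RPKM in control and 5.46, 5.79, 2.57, 4.99 and 6.35 in SRp55 siRNA replicates 1 to 5. The longer, ENST00000373204.4 (12790 bases), was at 6.26, 6.61, 6.24, 5.13 and 4.67 RPKM in control and 6.84, 7.10, 7.27, 6.37 and 6.04 in SRp55 siRNA replicates 1 to 5. Usage of the longer one was 74.4% ± 18.3 and 57.9% ± 9.45, a shift that did not pass the usage test (limma diffSplice adjusted p = 0.64 for the gene and 0.77 for the transcript).

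AGO2, the Argonaute that can slice its target (chr8:141541264-141645718, − strand), had gene sums of 5.97 ± 1.25 and 6.79 ± 0.462 RPKM (a log2 difference of 0.08, SE 0.130, limma adjusted p = 0.43). In read share it did not overlap between groups, at 14.6 to 16.6 RPM in control and 16.7 to 20.1 in SRp55 siRNA libraries, yet the limma adjusted p on reads was 0.14. The share of all genes without overlap on reads is not given here. ENST00000220592.5 held 45.0% ± 9.93 and 36.8% ± 13.0. ENST00000523609.1, annotated to nonsense-mediated decay, held 12.6% ± 9.48 and 26.0% ± 15.9 and did not pass (diffSplice adjusted p = 0.91 for the transcript).

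AGO3 (chr1:36396319-36538101, + strand), whose start lies 1107 bases past the end of AGO1, was listed at 6.85, 6.61, 1.72, 1.81 and 6.30 RPKM in control and 9.50, 9.61, 8.82, 1.67 and 6.19 in SRp55 siRNA replicates 1 to 5. Control replicates 3 and 4 and SRp55 siRNA replicate 4 stood low; they are the libraries in which the 19687-base ENST00000373191.4 held 99.03, 95.0 and 99.03% of the gene. In read share the same 3 libraries did not stand apart, at 41.8, 37.3 and 36.1 RPM within 33.6 to 41.8 over all libraries. In RPKM the difference was 0.47 on the log2 scale (limma SE 0.501, adjusted p = 0.54), and on reads it was -0.09. AGO4 (chr1:36273773-36323491, + strand), which ends 11917 bases before AGO1, had gene sums of 3.42 ± 0.414 and 3.89 ± 0.565 RPKM (a log2 difference of 0.05, SE 0.124, limma adjusted p = 0.49). Without control replicate 1 the difference was -0.04.

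Among Argonaute reads AGO1 held a larger and AGO3 a smaller share in every SRp55 siRNA library than in any control library, a description with no test. AGO1 held 57.2% ± 1.22 of the summed Argonaute reads in control (55.5 to 58.7%) and 61.2% ± 1.35 in SRp55 siRNA libraries (59.4 to 63.2%). AGO3 held 22.2% ± 0.719 (20.9 to 22.7%) and 18.2% ± 1.25 (16.3 to 19.5%). Both were without overlap, whereas AGO2 (8.92% ± 0.204 and 9.03% ± 0.172) and AGO4 (11.7% ± 0.641 and 11.5% ± 0.701) overlapped. No share of all genes without overlap on reads is given here, so how common such separation is remains unknown. These shares are of reads, which grow with transcript length, so they compare libraries and not the levels of the genes; in RPKM the shares of all 4 overlapped (AGO1 36.6% ± 7.12 and 40.1% ± 5.48). A higher share of one member lowers the others by construction.

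**Figure D4:**
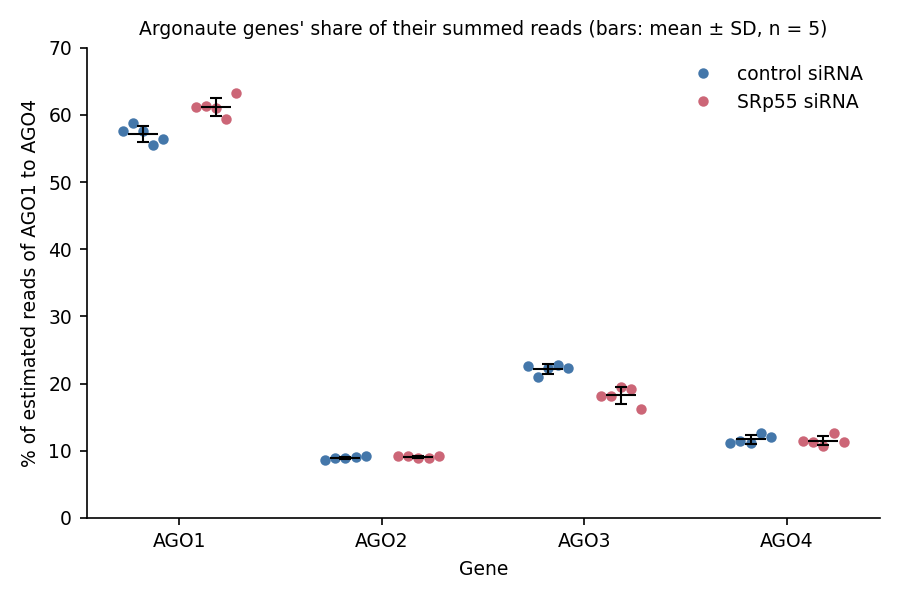
Share of the summed Argonaute reads held by each of AGO1 to AGO4 (percent, vertical axis), with 1 point per library and bars for the mean ± SD (n = 5 per group). AGO1 lies higher and AGO3 lower in every SRp55 siRNA library, and AGO2 and AGO4 overlap.

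TNRC6A, the silencing adaptor (chr16:24741016-24838953, + strand), had gene sums of 15.3 ± 2.74 and 16.9 ± 1.35 RPKM (a log2 difference of 0.05, SE 0.128, limma adjusted p = 0.51). On reads it went the other way, at 108 ± 8.34 and 99.2 ± 7.06 RPM, lower within all 5 pairs (log2 fold change -0.11, limma adjusted p = 0.28). The retained-intron transcript ENST00000563201.1 held 5.77% ± 7.94 and 13.7% ± 2.90 of it (diffSplice adjusted p = 0.24 for the transcript).

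No transcript exchange was called in the 9 genes other than DGCR8: 0 of 9 passed limma's diffSplice test together with a usage shift of 10 points or more, against 34 of 9915 genes (0.343%). Without control replicate 1 or 4 the count over all genes was 52. The gene-level adjusted p ranged from 0.54 (TNRC6A) to 1.00. The largest usage shift in the 9 genes was that of AGO3 ENST00000397828.2, 21.7 points (diffSplice adjusted p = 0.98 for the gene). It held 18.3% ± 22.3 in control and 40.0% ± 30.6 in SRp55 siRNA libraries, with overlap. Transcripts holding under 5% of their gene summed to 24.5% in TARBP2, 20.7% in TNRC6A, 20.1% in DROSHA, 19.0% in XPO5, 7.39% in DICER1, 4.73% in AGO3 and 4.17% in AGO2, while AGO1 and AGO4 had no such transcript.

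Other genes of the pathway were read from fixed lists, beside a median of 0 and shares of 3.76% higher and 5.02% in either direction over all tested genes. The other fits called more of the 13630 genes. With the replicate block 1280 were higher and 504 lower, on reads 995 and 1345, and with median-of-ratios scaling 412 and 507. Among Microprocessor partners 0 of 16 passed (median log2 fold change 0.05), and 1 rose with the replicate block. DDX5 and DDX17, helicases of the Microprocessor, were at 268 ± 37.9 and 332 ± 63.7 RPKM (limma adjusted p = 0.33) and at 113 ± 7.30 and 108 ± 5.84 RPKM (0.74). SRSF3, an SR protein that binds primary microRNAs, was at 71.2 ± 5.02 and 77.6 ± 4.39 RPKM (limma adjusted p = 0.48). Among export and Dicer partners 0 of 5 passed (median -0.10), and 1 (RAN, named after its value was seen) rose on reads. PRKRA (PACT), another DICER1 partner, was at 33.1 ± 7.18 and 32.3 ± 8.61 RPKM. Among RISC partners 0 of 11 passed (median -0.04), but 1 rose and 1 fell both with the replicate block and on reads, and with median-of-ratios scaling 1 fell. The former was FMR1 (10.8 ± 1.14 and 14.2 ± 1.18 RPKM, limma adjusted p 0.061, 0.018 with the block and 0.017 on reads), and the latter PTGES3 (191 ± 12.9 and 147 ± 26.1 RPKM, limma adjusted p 0.12, 0.043 both with the block and when scaled by median of ratios, and 0.010 on reads), both without overlap and both named after their values were seen. The TNRC6A paralogs TNRC6B and TNRC6C were at 2.97 ± 1.43 and 2.37 ± 0.268 RPKM and at 2.99 ± 0.409 and 4.13 ± 1.30 RPKM, with limma adjusted p of 0.71 and 0.29.

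Of the genes for tailing and turnover, 1 of 9 rose and none fell (median 0.04, against 3.76% of all tested genes higher), and on reads 1 fell (DIS3L2, limma adjusted p = 0.030, named after its value was seen). The riser was LIN28B, an RNA-binding protein that blocks maturation of let-7, at 3.72, 3.88, 3.89, 4.02 and 4.27 RPKM in control and 8.56, 8.69, 9.32, 9.12 and 8.88 in SRp55 siRNA replicates 1 to 5. The groups were far apart relative to their spread (3.95 ± 0.205 and 8.91 ± 0.310 RPKM, log2 fold change 0.97, SE 0.085, limma adjusted p = 0.00022), and the call held without any one library (highest adjusted p 0.0016). Its paralog LIN28A was under the filter. Of the genes for deadenylation, decapping and decay 1 of 22 rose and none fell (median 0.04, against 3.76% higher and 5.02% either way). These counts depended on the fit: with the replicate block there were 5 higher and 1 lower, on reads 3 higher and 3 lower, and after scaling by median of ratios 1 higher and 1 lower. Over all 13630 tested genes the same fits gave 1280 higher and 504 lower, 995 and 1345, and 412 and 507. CNOT11, a subunit of the CCR4-NOT deadenylase named after its values were seen, was the gene that fell with the block (limma adjusted p = 0.033) and with median-of-ratios scaling (0.017), at 33.7 ± 4.18 and 27.8 ± 3.06 RPKM. It was also among the 3 genes lower on reads (limma adjusted p = 0.0026). The gene that rose was PABPC4, a poly(A)-binding protein with close paralogs among which reads could be split, at 38.8 ± 12.7 and 77.8 ± 25.3 RPKM with overlapping groups (log2 fold change 0.88, limma adjusted p = 0.046). That call held without control replicate 4 or SRp55 siRNA replicate 3 and was lost without any one of the other 8 libraries, with a limma adjusted p of up to 0.109 (without control replicate 2).

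Of the microRNA host genes, long transcripts named for the microRNA they carry, 2 of 17 measured (of 54 listed) rose and none fell (median 0.18, against 3.76% of all tested genes higher), and 3 rose in each of the fits with the block, on reads and scaled by median of ratios (the third was MIR924HG with the block and MIR7-3HG in the others). In those 3 fits 1280, 995 and 412 of all 13630 tested genes rose. MIR4435-2HG rose from 0.731 ± 0.243 to 1.90 ± 0.490 RPKM (a log2 difference of 0.85, limma adjusted p = 0.0148). MIR217HG, the host of miR-217, rose from 2.70 ± 0.437 to 4.56 ± 0.517 RPKM (a log2 difference of 0.56, limma adjusted p = 0.0151). Both were without overlap and held without any one library, with adjusted p of at most 0.0438 and 0.0445. The level of a host transcript is not that of its microRNA.

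**Figure D5:**
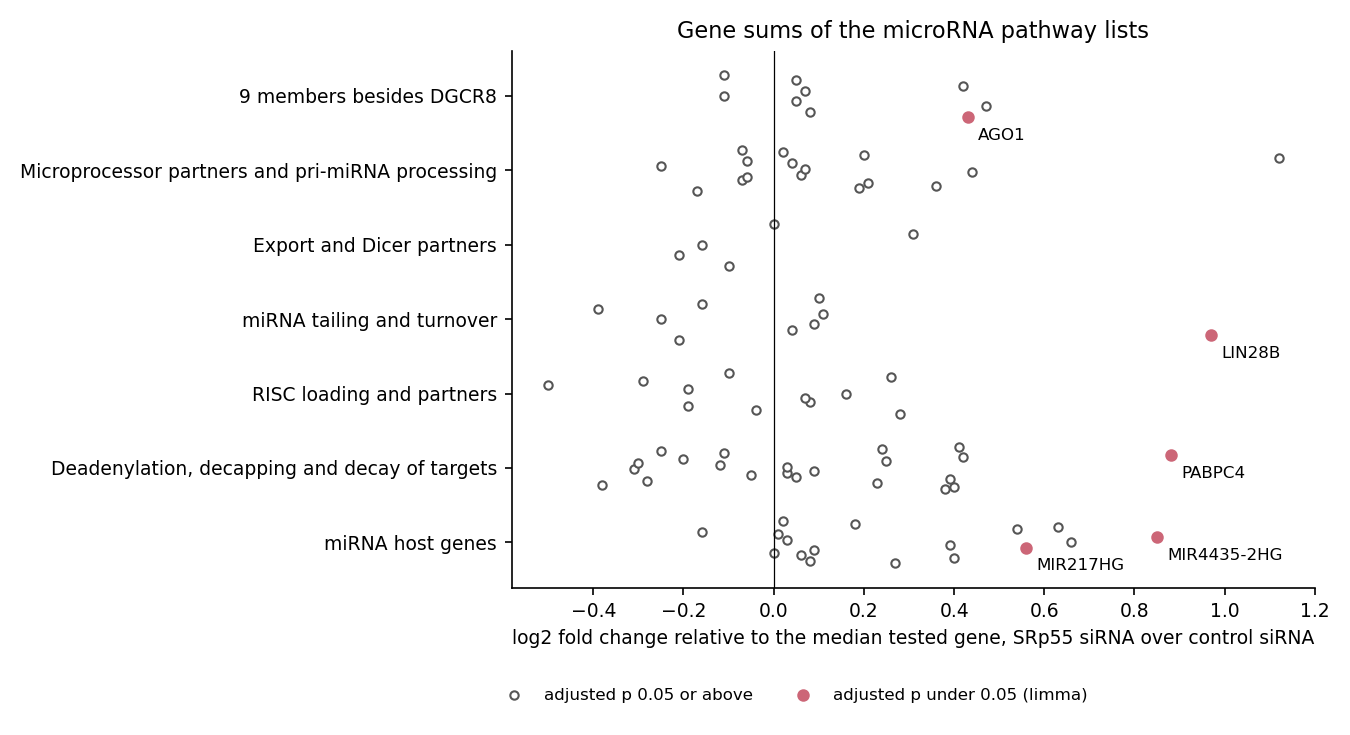
Log2 fold change of each measured gene relative to the median tested gene (horizontal axis, SRp55 siRNA over control siRNA), by pathway list (rows), with filled points for genes at a limma adjusted p under 0.05. AGO1, LIN28B, PABPC4, MIR4435-2HG and MIR217HG are the filled points, all to the right of 0.

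Some genes elsewhere had a transcript whose usage ran most like that of ENST00000383024.2 over the 10 libraries, as a description among 9792 genes compared in which all points share the same libraries and groups. Pearson's r was 0.96 for HDAC5 (ENST00000591714.1, usage 11.5% ± 0.991 in control and 17.1% ± 2.76 in SRp55 siRNA libraries). It was 0.929 for UBE2L3 (2.60% ± 1.63 and 8.37% ± 3.50) and 0.924 for COMMD4 (1.17% ± 1.62 and 27.9% ± 22.4). For GATAD2A (4.07% ± 1.32 and 18.4% ± 3.18) and PNP (2.22% ± 1.33 and 8.78% ± 3.24) it was 0.914. None of these genes passed the usage test (diffSplice adjusted p of 0.12 or above), and the groups overlapped for UBE2L3 and COMMD4.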

How the data were processed

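Each library's file lists transcripts with estimated reads, length and RPKM in 1 text field, as deposited by the authors. The submitters' processing notes name TopHat and GRCh37 (hg19); what version, quantifier and annotation were used, and whether strand was, is not given in the sources used here. Within a library, RPKM was the reads divided by transcript length and 1 library total. Gene sums were tested as log2(RPKM + 0.5) with limma 3.58.1 (trend, robust; R 4.3.3), without a block, over genes averaging 0.5 RPKM or more, with Benjamini-Hochberg adjustment. Because reads stand in a text field with RPKM and are fractional, the RPKM route was used and no count model was run; read sums were an alternative. Usage was tested with limma's diffSplice over transcripts with at least 0.5 RPKM and 5% mean usage, called at adjusted p under 0.05 and a shift of at least 10 points. Calls rest on its gene-level F test. A p-value given for a transcript is from its transcript-level test, adjusted over all tested transcripts. Scripts were tested on simulated data. Names came from GENCODE 44 by Ensembl ID (95.0% of genes and 92.4% of transcripts matched). Since the build differs, GRCh38 positions were reached by transcript and by distances within DGCR8, and no coordinate was converted. Same-numbered libraries deviated together, with correlations of 0.128 to 0.414 for each pair and at most 0.121 between different numbers. Numbers were therefore taken to pair libraries in the fit with the block. The main fit had no block because the labels state no pairing, so its p-values leave this pairing out. The 10 genes and all lists were chosen with earlier results of these data known. Named were all 10 genes, every DGCR8 transcript, some but not all of the other transcripts from 5% usage, called list genes (at most 4 a list) and DDX5, DDX17, PRKRA, TNRC6B, TNRC6C and SRSF3. Alternatives changed scaling, pseudocount, filters, reads for RPKM, the block and single libraries. Counting limits cover counting error only.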

Additional observations from a re-analysis of the deposited data

Results flagged for a closer look

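Of 44 groups of 5 values examined, 3 held a library far from the others, and chance flags about 5% of such groups. The AGO2 gene sum in control replicate 2 was 8.10 RPKM, where the other control libraries were at 5.03 to 5.84 RPKM. Usage of the DGCR8 transcript ENST00000475941.1 in control replicate 3 was 24.8%, where the other control libraries were at 4.10 to 5.58%. Usage of the DGCR8 transcript ENST00000495351.1 in control replicate 2 was 46.0%, where the other control libraries were at 5.47 to 13.5%.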

How the results depend on the processing

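The count of called genes, 684, became 2340 on read sums (995 higher and 1345 lower, 612 shared with the 684) and 1784 with the replicate number as a block (663 shared), and ran from 259 to 1083 when 1 library was left out. The count of called usage genes, 34, became 67 with a filter at 0.1 RPKM and 1% usage and 20 with a filter at 10% usage, and ran from 24 to 52 when 1 library was left out; with the block it was 34 as well, of which 23 were shared. Among the members, the log2 fold change turned on read sums for AGO3 (-0.09) and TNRC6A (-0.11), and, with 1 library left out, ran from -0.01 to 0.13 for DROSHA, -0.24 to 0.02 for XPO5 and -0.04 to 0.12 for AGO4; none of these had passed. The cause was not tested. On reads, the usage shift of ENST00000351989.3 was -50.8 percentage points. The shifts of ENST00000383024.2 and ENST00000498171.1 ran from 27.1 to 41.1 and from 26.3 to 30.7 points over 16 alternatives each. The block changed no other member's call than that of TARBP2. Depth and transcript models limit the division of reads between transcripts that share most of their bases, and no error of that division is listed.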

Other observations

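MIR7-3HG, the host of miR-7-3, was singled out after its values were seen, miR-7 being abundant in pancreatic endocrine cells. It was at 36.2, 32.4, 25.7, 46.1 and 22.2 RPKM in control and 76.0, 55.7, 50.6, 43.0 and 44.3 RPKM in SRp55 siRNA replicates 1 to 5, with limma adjusted p of 0.075, of 0.038 with median-of-ratios scaling, of 0.011 on reads and of 0.052 with the replicate block. SMAD4, also singled out after its values were seen, had the largest log2 fold change of the listed Microprocessor partners (1.12 in RPKM, limma adjusted p = 0.11, and 0.048 with the block), but 0.17 on read sums.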
